A study of Mus musculus with 2 samples.

Results

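The receptors through which 4 pituitary hormones reach the ovary were followed across the cells of the mouse ovary: Fshr (follicle-stimulating hormone), Lhcgr (luteinising hormone), Prlr (prolactin) and Ghr (growth hormone). They were taken by symbol from the gene lists of both libraries and are 4 of 29373 genes. Each group was 1 library of dissociated ovaries from female ICR mice, an outbred stock, taken at 8 weeks of age. The PS-MP library came from mice gavaged daily for 35 days, from 3 weeks of age, with 1 mg of polystyrene microplastics of 0.1 µm (100 nm) diameter in 100 µL. Control mice received water (ddH2O) in place of the particles. Ovaries of different mice were combined, and the labels give n = 16 without saying whether this is per group or in all. Other doses and particle sizes named in the labels were not analysed here.

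The PS-MP library held 15056 cells with 145474989 counted molecules (UMIs), and the control library held 15373 cells with 160257194. After filtering, 14412 PS-MP cells and 14538 control cells remained, with median depths of 8643 and 9502.5 UMIs, and the libraries shared 3 cell barcodes. Cells were clustered together with the 4 receptors kept out of the genes used, so neither the clusters nor their names rest on the receptors. Levels are CPM, the counts of a gene summed over a class or cluster of cells and scaled to all counts of those cells. With 1 library a group there is no replicate and no test, and every comparison is between these 2 libraries. The values in parentheses after a level, share or ratio are exact 95% intervals that cover counting error only. A ratio is PS-MP over control, and a gene is counted as higher or lower where its ratio passes 1.5-fold and its level reaches 20 CPM in a library. A gene that reaches 20 CPM in only 1 library is measured through the library where it is high, so its difference is given as a description.

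Fshr and Lhcgr are G protein-coupled receptors that raise cAMP inside the cell. Follicle-stimulating hormone acts on granulosa cells, where it drives aromatase and inhibin production. Luteinising hormone acts on theca cells, on granulosa cells of large follicles and on the corpus luteum. Prlr and Ghr belong to the cytokine receptor class and signal through the kinase Jak2 and the factor Stat5. In rodents prolactin sustains the corpus luteum, and growth hormone acts on the ovary directly and through insulin-like growth factor 1.

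The Fshr and Lhcgr genes lie on the same chromosome, and the 250 bases before the RefSeq start of each are shown because these related receptors were highest in different cells. They come from RefSeq's table for GRCm38.p6, an older build than the GRCm39 named in the submitters' processing notes. Capitals mark an E-box (CACGTG) in Fshr and GC boxes (GGGCGG) in Lhcgr.
Fshr, chr17:89200676-89200925, minus strand: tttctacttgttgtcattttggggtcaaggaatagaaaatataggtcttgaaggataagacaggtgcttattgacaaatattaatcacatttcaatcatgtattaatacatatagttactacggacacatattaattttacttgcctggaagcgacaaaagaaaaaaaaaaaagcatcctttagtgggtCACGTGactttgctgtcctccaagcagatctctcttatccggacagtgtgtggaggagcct
Lhcgr, chr17:88792015-88792264, minus strand: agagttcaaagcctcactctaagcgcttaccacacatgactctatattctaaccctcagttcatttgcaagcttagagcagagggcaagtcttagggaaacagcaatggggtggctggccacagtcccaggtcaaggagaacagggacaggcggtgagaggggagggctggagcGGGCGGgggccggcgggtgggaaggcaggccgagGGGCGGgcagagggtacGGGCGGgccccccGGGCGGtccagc

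The Fshr window had 36.8% G and C, and the Lhcgr window 63.2%, against a median of 52.4% over the 32851 windows of this length in the table. The Fshr window held 1 E-box, at position -61 from the start, a motif present on either strand in 6.02% of all windows. The Lhcgr window held 4 GC boxes, at -76, -42, -25 and -12, and 32.7% of all windows held at least 1. The Lhcgr window also held the nuclear receptor motif AGGTCA at -122 (14% of all windows), and neither window held the letters TATAAA (12.4%). The 3 Prlr windows on chromosome 15 had 48%, 44.8% and 32.8% G and C, and the second, chr15:10223656-10223905, held the STAT5 motif TTCNNNGAA (7.02% of all windows). The 2 Ghr windows, also on chromosome 15, had 65.6% and 52% G and C, with 2 GC boxes in the first. These matches describe letters in the windows and not binding.

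The fixed markers named 19 clusters. Granulosa-like cells were clusters 0, 2, 3, 4, 5, 6 and 10, with 9122 PS-MP cells and 10240 control cells. Cluster 5 was led by Cyp19a1, the aromatase that makes oestrogens, and by Inhba, an activin and inhibin subunit. Cluster 3 was led by Inhbb, cluster 4 by Igfbp5 and Amh, cluster 2 by mitotic genes such as Ccnb1, cluster 0 by genes such as Ntng1, cluster 6 by H19, Galnt15 and Ntn4, and cluster 10 by Pcsk6 and Car4. Theca-like cells (cluster 9, 508 PS-MP and 518 control cells) carried Cyp17a1, the androgen-making enzyme, but Insl3, a defining theca hormone, was at 0.631 and 0.180 CPM. Luteal-like cells fell into a different cluster in each library: cluster 7, led by Edn2 and Tinagl1, held 1908 of its 2037 PS-MP cells and 10 of its 237 control cells, and cluster 12, led by Akr1c18, Sfrp4 and Ptgfr, held 129 and 227. Cluster 7 has 0 of the fixed luteal markers among its 10 leading genes and may belong to its library and not be a cell type. Granulosa-like clusters 0, 2, 6 and 10 also have 0 of their own markers among their 10 leading genes. The marker score is the mean over a list of each marker's level relative to its highest cluster. Cluster 6 scored 0.179 for granulosa cells, with theca next at 0.113, and cluster 0 scored 0.284, with glia next at 0.252. The names of clusters 6 and 0 are therefore weak. Cluster 7 scored 0.528 for luteal cells, with granulosa next at 0.126, and 11 of 11 luteal markers reached 20 CPM in its PS-MP cells. Theca-like cluster 9 scored 0.450, with luteal next at 0.332.

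Fshr counts came mostly from granulosa-like cells in both libraries. Granulosa-like cells held 85.5% of all Fshr counts in the PS-MP library and 95.8% in the control library, and luteal-like cells held 11.6% and 0.426%. The Fshr level in granulosa-like cells was 139 CPM (137 to 141) in the PS-MP library and 175.8 CPM (173 to 178) in the control library. With every cell thinned to 3500 UMIs, 33.8% of PS-MP and 37.4% of control granulosa-like cells had an Fshr UMI, and without thinning 57.6% and 62.5% had one. In macrophage or monocyte-like cells, used as the gauge of RNA carried over from other cells, the thinned shares for Fshr were 9.66% and 8.86%, and the levels 43.5 and 33.5 CPM. Single cells of this class reached 31 Lhcgr UMIs in the PS-MP library and 39 Prlr UMIs in the control library. Whether the gauge holds free RNA alone was not tested. Median depths were 8952.5 and 9913 UMIs in granulosa-like cells and 5677 and 6847 in macrophage or monocyte-like cells. Thinned Fshr shares in blood endothelial-like cells (3.82% and 6.29%), theca-like cells (2.17% and 3.09%) and stromal fibroblast-like cells (2.69% and 2.93%) lay below that gauge. The gauge therefore stood above the lowest classes, and a share at or below it is not called background or expression.

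After granulosa-like cells, the next Fshr levels were in lymphoid-like cells (cluster 15, with T, NK and innate lymphoid markers), at 78.9 CPM (51.1 to 117) in the PS-MP library and 113.6 CPM (92.3 to 138) in the control library, from 40 and 98 cells. Those cells also carried the 12 granulosa markers at a summed level of 10846 and 9830 CPM, against 18110 and 19570 CPM in granulosa-like cells. The part of those markers in the Fshr level was not tested. Luteal-like cells of the PS-MP library, mostly cluster 7, had 71.8 CPM (68.4 to 75.4), which overlaps the lymphoid-like interval, and luteal-like control cells, mostly cluster 12, had 21.2 CPM (17 to 26.2). In cluster 7 the thinned share was 23.1%, above the gauge, and in cluster 12 it was 11.6% of PS-MP and 6.17% of control cells. Cluster 7 therefore carried mRNA of both gonadotropin receptors, with 18.7% of its cells (16.9 to 20.5) showing Fshr and Lhcgr UMIs together after thinning.

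Within granulosa-like cells Fshr was highest in clusters 3 and 5 and lowest in cluster 10. In clusters 3, 5, 0, 2, 4, 6 and 10, in that order, the level in PS-MP cells was 187, 169, 152, 134, 122, 41.0 and 18.3 CPM. In the same clusters of control cells it was 261, 222, 190, 156, 169, 48.0 and 19.8 CPM. Cluster 10, at thinned shares of 5.01% and 5.66%, did not exceed the gauge.

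Lhcgr marked luteal-like and theca-like cells. Its level in luteal-like cells was 1212 CPM (1198 to 1227) in the PS-MP library and 1496 CPM (1458 to 1534) in the control library. In theca-like cells it was 726 CPM (702 to 751) and 1049 CPM (1023 to 1077). In stromal fibroblast-like cells it was 59.2 and 65.1 CPM, and in granulosa-like cells 26.5 CPM (25.4 to 27.6) and 50.1 CPM (48.8 to 51.5). By level, luteal-like cells thus stood above theca-like cells in both libraries, and both far above the rest. The luteal-like cells of the 2 libraries were mostly of different clusters. By share of cells the order differed between the libraries. Thinned, 79.2% of luteal-like and 71.5% of theca-like PS-MP cells had an Lhcgr UMI, against 55.7% and 82.2% of control cells. Luteal-like cells held 80.1% of all PS-MP Lhcgr counts and 32.0% of the control ones, theca-like cells 9.81% and 30.9%, and granulosa-like cells 6.67% and 29.2%.

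Below the first pair, the order of Lhcgr levels differed between the libraries. Macrophage or monocyte-like cells had 83.5 CPM (72.7 to 95.5) of Lhcgr in the PS-MP library and 24.2 CPM (20.5 to 28.3) in the control library, and the thinned shares were 7.95% and 4.43%. Among granulosa-like cells, only cluster 5 exceeded this gauge clearly in both libraries, with 29.7% of PS-MP cells and 42.1% of control cells. Cluster 3 had 8.01% and 7.26%, and clusters 0, 2, 4, 6 and 10 lay at or below the gauge in both libraries, at 2.33% to 6.41% in PS-MP cells and 1.85% to 3.19% in control cells. Lhcgr in those 5 clusters therefore did not exceed the gauge, and its source was not tested. The Lhcgr level in cluster 5 was 185 CPM in PS-MP cells and 351 CPM in control cells, and in cluster 3 it was 26.4 and 29.5 CPM.

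Prlr followed much the same cells as Lhcgr but reached further into granulosa-like and stromal cells. Its level in luteal-like cells was 1897 CPM (1880 to 1915) in the PS-MP library and 2061 CPM (2017 to 2105) in the control library, and in theca-like cells 981 CPM (953 to 1010) and 1156 CPM (1127 to 1184). In stromal fibroblast-like cells Prlr stood at 131 and 140 CPM, and in granulosa-like cells at 76.1 CPM (74.3 to 78.0) and 130 CPM (128 to 132). Thinned, 96.5% of PS-MP and 88.6% of control luteal-like cells had a Prlr UMI. The shares were 89.4% and 91.7% of theca-like cells, 24.5% and 24.7% of stromal fibroblast-like cells, and 13.9% and 7.92% of macrophage or monocyte-like cells. Granulosa-like cells held 11.6% of all PS-MP Prlr counts and 44.6% of the control ones, while luteal-like cells held 76.0% and 26.0%.

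Among granulosa-like clusters, cluster 5 again stood first for Prlr, at 391 CPM in PS-MP cells and 691 CPM in control cells, followed by cluster 3 at 87.5 and 133 CPM and cluster 0 at 60.9 and 58.4 CPM. Those 3 clusters had thinned Prlr shares above the gauge in both libraries. In clusters 2, 4, 6 and 10 the PS-MP shares of 5.29% to 12.1% lay below the PS-MP gauge of 13.9%. In control cells clusters 2 and 4, at 10.4% and 10.6%, exceeded the control gauge of 7.92%, and clusters 6 and 10 did not.

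Ghr had a different distribution. Surface epithelium-like cells had the highest level, 95.2 CPM (45.7 to 175) in the PS-MP library and 127 CPM (77.6 to 196) in the control library, but from 12 and 20 cells with 10 and 20 counts. Stromal fibroblast-like cells followed with 70.4 CPM (66.1 to 74.8) and 86.8 CPM (82.6 to 91.1), and the intervals of these classes overlap. Smooth muscle or pericyte-like cells had 55.2 and 66.5 CPM, granulosa-like cells 35.7 CPM (34.5 to 37.0) and 57.3 CPM (55.9 to 58.7), blood endothelial-like cells 34.0 and 52.3 CPM, and theca-like cells 28.8 and 43.5 CPM. Luteal-like cells, the highest class for Lhcgr and Prlr, had 11.5 and 14.6 CPM of Ghr. Thinned Ghr shares in luteal-like cells were 3.63% and 4.64%, beside 5.11% and 4.30% in macrophage or monocyte-like cells. They lay below the gauge in the PS-MP library and close to it in the control library. In stromal fibroblast-like cells the shares were 20.5% and 23.9%.

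Among granulosa-like clusters, Ghr and Fshr were high in different places. Cluster 6 had 200 CPM of Ghr in PS-MP cells and 293 CPM in control cells, and Ghr was among its 10 leading genes although it had no part in the clustering. Cluster 0 followed at 54.7 and 87.5 CPM and cluster 10 at 21.2 and 25.9 CPM. Clusters 3 and 5, the highest for Fshr, had 4.63 and 6.76 CPM and 9.76 and 11.2 CPM, and their thinned shares of 1.14% to 3.88% lay below the gauge. Without thinning, Ghr UMIs per cell in cluster 6 had a median of 1 in both libraries and a maximum of 27 in PS-MP cells and 33 in control cells. In these cells 44.4% and 31.2% had none, at median depths of 7346 and 8184.5 UMIs.

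**Figure D1:**
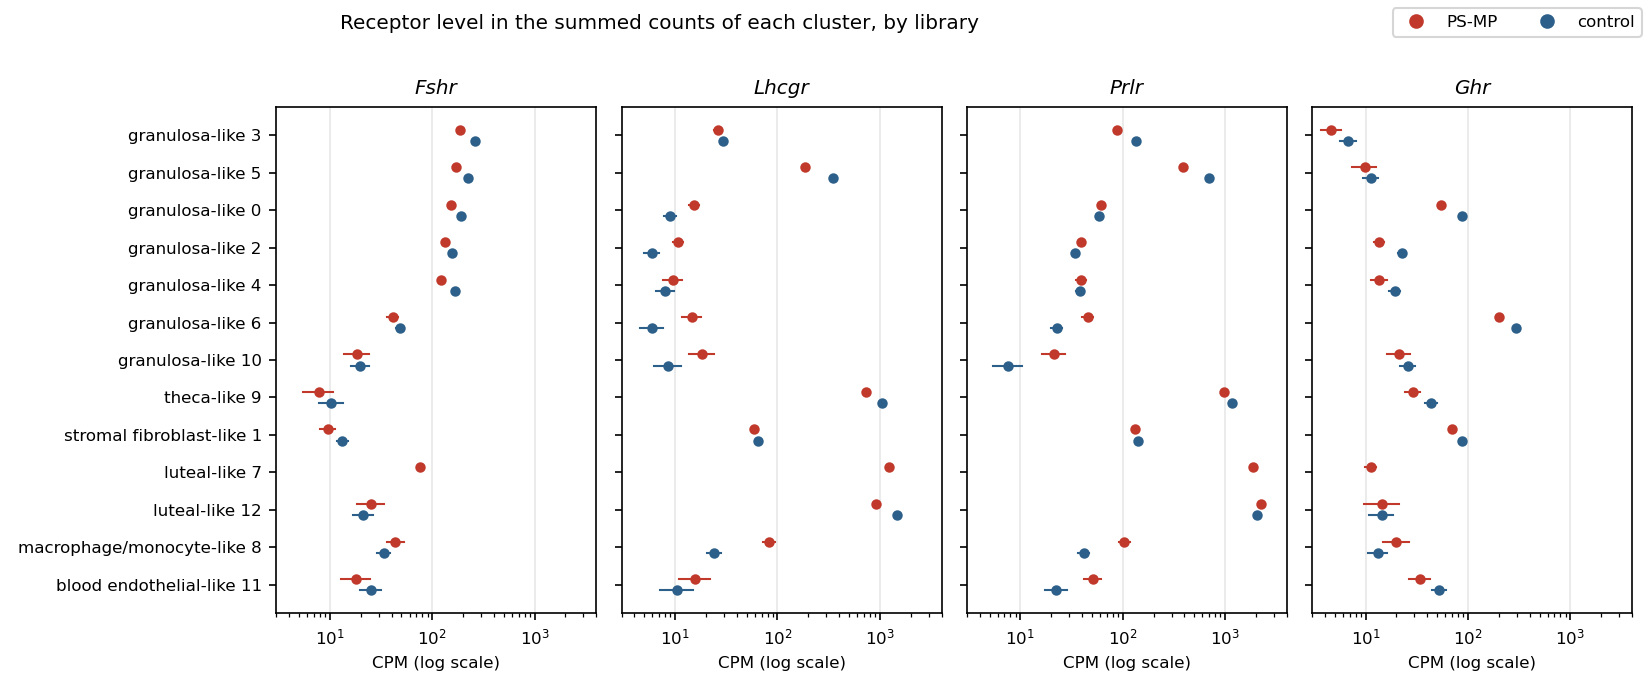
Level of each receptor (CPM, log axis) in the summed counts of each cluster, with PS-MP in red and control in blue and bars for the exact 95% counting interval; cluster 7 is shown for PS-MP only, since it held 10 control cells. Fshr is highest in granulosa-like clusters 3 and 5, Lhcgr and Prlr in luteal-like and theca-like clusters and then in cluster 5, and Ghr in cluster 6.

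**Figure D2:**
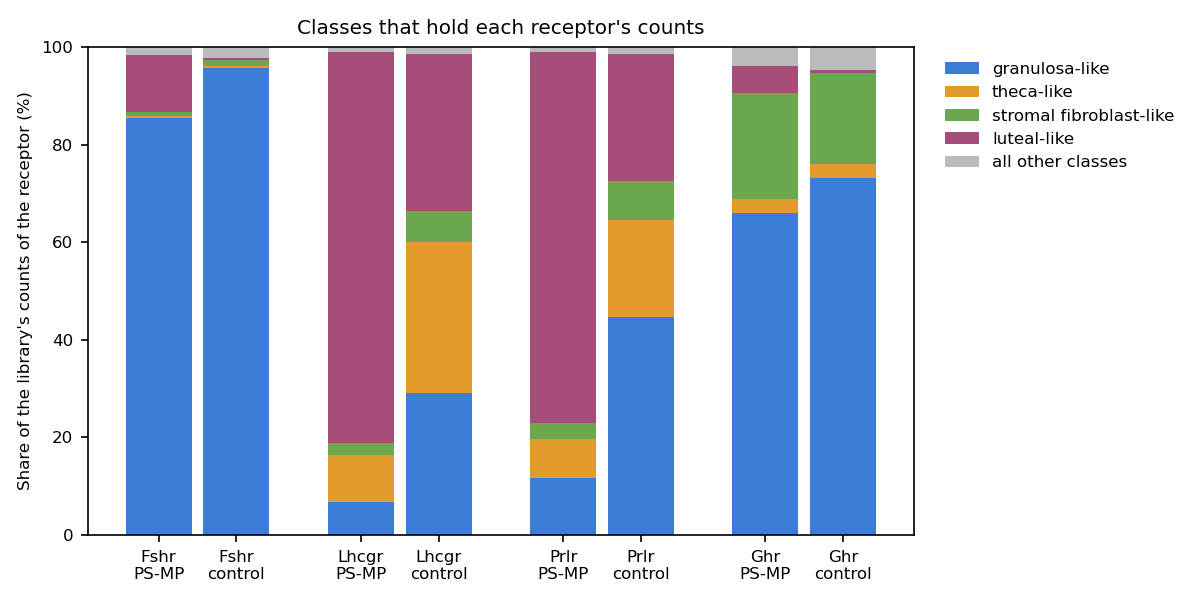
Share of each receptor's counts (%) held by the named classes, PS-MP left of control for each receptor. Luteal-like cells hold 80.1% of PS-MP and 32.0% of control Lhcgr counts, while granulosa-like cells hold most Fshr and Ghr counts in both libraries. For Ghr their shares of 66.0% and 73.1% are close to their shares of all cells, 63.3% and 70.4%.

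In granulosa-like cells the ratio of PS-MP over control was below 1 for all 4 receptors. The Fshr ratio was 0.791 (0.773 to 0.809), Ghr 0.623 (0.597 to 0.650), Prlr 0.585 (0.568 to 0.602) and Lhcgr 0.529 (0.503 to 0.555). Lhcgr, Prlr and Ghr passed 1.5-fold, so 3 of 4 members were counted as lower, where 0.476% of the 7351 genes measured in this class were. The median log2 ratio was -0.73 over the 4 receptors and -0.02 over all those genes. For Lhcgr and Prlr the class ratio depended on cluster 5, which had 721 PS-MP cells and 1388 control cells and held 1064 of 2346 PS-MP Lhcgr counts and 4337 of 5518 control ones. Without it the Lhcgr ratio was 1.28 and the Prlr ratio 0.920, and with the 7 clusters weighted alike they were 1.37 and 1.14. The Fshr and Ghr ratios stayed below 1 under every alternative tried, but with the 7 clusters weighted alike Ghr was 0.706 and no longer passed 1.5-fold, so that 0 of the 4 were then counted as lower.

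The Fshr ratio was below 1 in each of the 7 granulosa-like clusters. It ran from 0.718 (0.687 to 0.751) in cluster 3 to 0.925 (0.650 to 1.30) in cluster 10, and 6 of 7 intervals lay below 1. In none of the 7 clusters did Fshr pass 1.5-fold. Ghr was also below 1 in all 7, from 0.598 (0.521 to 0.685) in cluster 2 to 0.869 (0.625 to 1.19) in cluster 5, with 5 intervals below 1. In cluster 6, where Ghr was highest, the ratio was 0.681 (0.638 to 0.728). It passed 1.5-fold in cluster 0, at 54.7 CPM in PS-MP and 87.5 CPM in control cells, where 0.488% of the genes measured were lower by that rule. In cluster 2 Ghr was at 13.5 and 22.5 CPM, over 20 CPM in the control library alone, beside 0.528% of genes lower there.

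Lhcgr and Prlr lay on the same side of 1 as each other in all 7 granulosa-like clusters, below 1 in clusters 3 and 5 and above 1 in the other 5. In cluster 5 Lhcgr had a ratio of 0.529 (0.494 to 0.566) and Prlr of 0.565 (0.539 to 0.592), where 1.91% of genes measured in that cluster were at least 1.5-fold lower. Without thinning, Prlr UMIs per cell in cluster 5 had a median of 2 in PS-MP cells and 5 in control cells. In these cells 5.13% and 22.7% had 10 or more, at median depths of 7587 and 8685 UMIs. In cluster 3 the Prlr ratio was 0.657 (0.616 to 0.700) and the Lhcgr ratio 0.894 (0.789 to 1.01), and Prlr was counted as lower beside 2.18% of genes there. In clusters 0, 2, 6 and 10 the Lhcgr ratio ran from 1.71 to 2.46. The Prlr ratio was 1.04 in cluster 0 and 1.14 in cluster 2, and it reached 2.0 (1.68 to 2.40) in cluster 6 and 2.79 (1.84 to 4.27) in cluster 10, where 0.935% and 1.48% of genes were at least 1.5-fold higher. In cluster 10 Prlr was at 21.2 CPM in PS-MP and 7.59 CPM in control cells, over 20 CPM in the PS-MP library alone. In cluster 4, 0 of the 2 receptors at 20 CPM passed, beside 1.07% of genes in either direction. Lhcgr levels in clusters 0, 2, 6 and 10 were under 20 CPM in both libraries, and both receptors stood at or below the PS-MP gauge in clusters 2, 6 and 10. The summed level of the luteal markers was higher in PS-MP than in control cells of clusters 0, 2, 3, 4, 6 and 10. In cluster 5 it was lower. The size of this difference did not follow the Prlr ratio. Cluster 6, with a Prlr ratio of 2.0, had a PS-MP sum of 1137 CPM beside 632 for control. The sums were 1537 beside 862 where Prlr stood at 1.04 (cluster 0), and 924 beside 664 where it stood at 2.79 (cluster 10). Cluster 3, with Prlr at 0.657, had 4021 beside 3629. The part of luteal markers in the ratios was not tested.

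In theca-like cells 3 receptors had ratios below 1. The Lhcgr ratio was 0.692 (0.663 to 0.722), Prlr 0.849 (0.818 to 0.882) and Ghr 0.662 (0.533 to 0.820), and Fshr lay below the gauge in both libraries. Without thinning, Lhcgr UMIs per cell had a median of 4 in PS-MP cells and 8 in control cells, at median depths of 8023 and 9933.5 UMIs. By the 1.5-fold rule Ghr alone was counted, 1 of 3 receptors at 20 CPM, where 1.54% of genes measured in theca-like cells were lower. In stromal fibroblast-like cells the ratios were 0.811 (0.749 to 0.877) for Ghr, 0.940 (0.886 to 0.998) for Prlr and 0.908 (0.831 to 0.992) for Lhcgr, and 0 of 3 passed 1.5-fold, beside 1.05% of genes measured in either direction.

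In luteal-like cells the comparison holds within cluster 12 alone, since cluster 7 is nearly all from the PS-MP library. There Lhcgr was 919 CPM in PS-MP and 1465 CPM in control cells, a ratio of 0.628 (0.594 to 0.663), past 1.5-fold beside 5.96% of genes measured. Prlr was 2219 and 2039 CPM, a ratio of 1.09 (1.05 to 1.13). Fshr (25.3 and 21.3 CPM) and Ghr (14.5 and 14.3 CPM) had intervals that include a ratio of 1. Cluster 7 had 1238 CPM of Lhcgr and 1869 CPM of Prlr in PS-MP cells. The median cell of cluster 7 had 11 Lhcgr and 18 Prlr UMIs.

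Macrophage or monocyte-like cells had more Lhcgr and Prlr counts in the PS-MP library. The ratios were 3.45 (2.79 to 4.28) for Lhcgr and 2.5 (2.10 to 2.98) for Prlr, so 2 of 3 receptors at 20 CPM were higher, where 3.51% of genes measured in that class were. The 11 luteal markers summed to 1512 CPM in PS-MP and 861 CPM in control macrophage or monocyte-like cells, with 8 and 5 of the 11 at 20 CPM or more. Cyp11a1, the first enzyme of steroid synthesis, was at 413 and 169 CPM there, and Edn2, a leading gene of cluster 7, at 12.9 and 2.21 CPM. Of the 11, 0 were at 0 in either library, and the lowest were Sfrp4 at 4.31 CPM in PS-MP cells and Parm1 at 6.80 CPM in control cells. The part of this RNA in the ratios was not tested. Of the Lhcgr-positive cells of this class, 67.9% of PS-MP and 45.5% of control ones also had a Prlr UMI, from 19 and 15 cells with both. Blood endothelial-like cells had a Prlr ratio of 2.29 (1.68 to 3.15) at levels of 51.0 and 22.3 CPM, and a Ghr ratio of 0.651 (0.488 to 0.862), in a class where 2.29% of genes measured were higher and 3.29% lower.

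**Figure D3:**
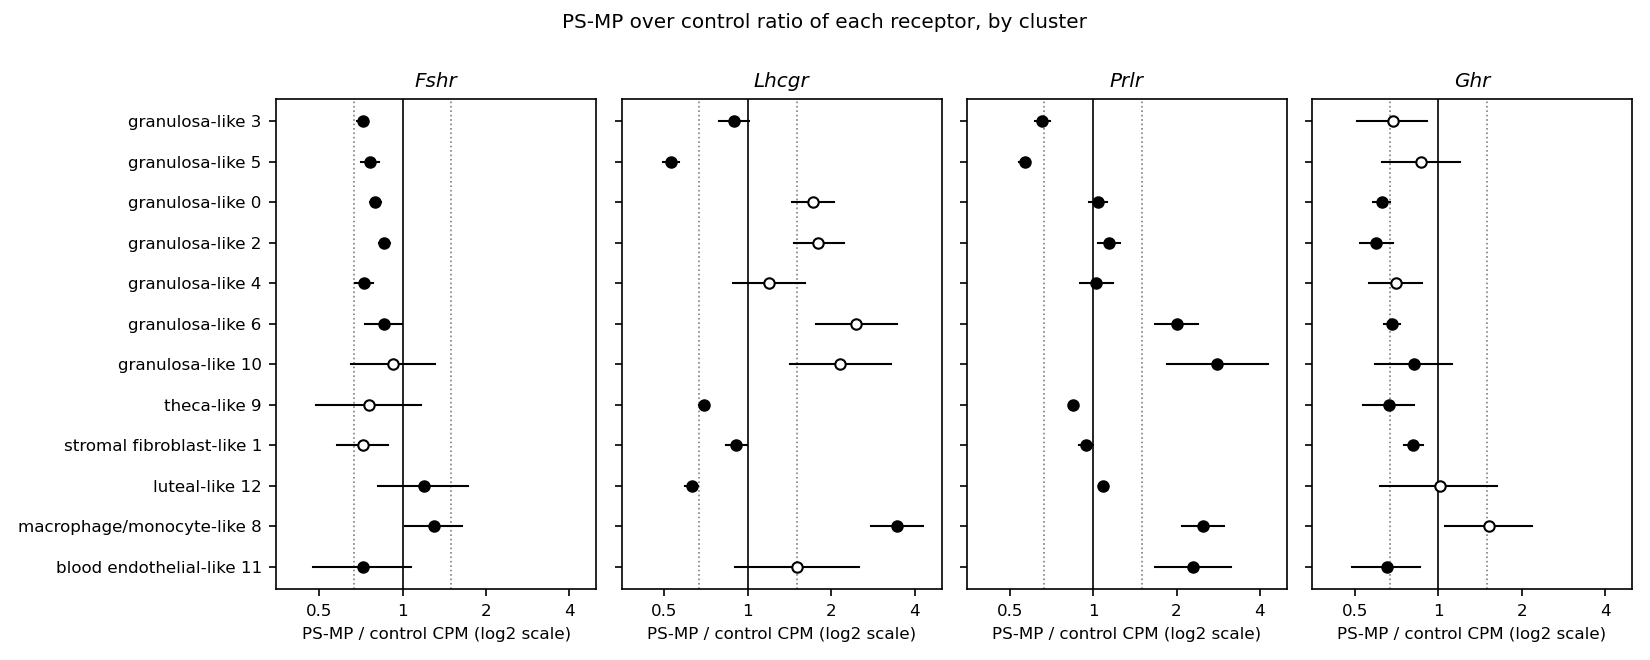
PS-MP over control ratio of each receptor in each cluster (log2 axis), with exact 95% counting intervals; dotted lines mark 1.5-fold and open points mark pairs where both levels were under 20 CPM. Fshr and Ghr lie below 1 in all 7 granulosa-like clusters, while Lhcgr and Prlr lie on both sides of 1.

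Over all kept cells the order was different for the pair with luteal expression. Lhcgr was 253 CPM in the PS-MP library and 124 CPM in the control library, a ratio of 2.04 (2.0 to 2.08), and Prlr was 417 and 211 CPM, a ratio of 1.98 (1.95 to 2.0). Fshr was 103 and 133 CPM, with a ratio of 0.780, and Ghr 34.4 and 56.6 CPM, with a ratio of 0.608. A whole-library level alone does not separate the number of cells of a type from the RNA per cell. By class, the Lhcgr ratio was 0.811 in luteal-like, 0.692 in theca-like, 0.529 in granulosa-like and 0.908 in stromal fibroblast-like cells. The Prlr ratios of these classes were 0.921, 0.849, 0.585 and 0.940, and in all other classes both ratios were above 1. The part of class shares in the whole-library ratios was not tested. Luteal-like cells were 14.1% of PS-MP cells and 1.63% of control cells.

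Co-detection was read in cells thinned to 3500 UMIs, for the 6 pairs of receptors. In granulosa-like cells Lhcgr and Prlr were found together in 2.94% of PS-MP cells (2.6 to 3.31) and 5.94% of control cells (5.49 to 6.41), which is 2.30 and 2.96 times the product of their separate shares. Of Lhcgr-positive granulosa-like cells, 42.9% in the PS-MP library (39 to 46.9) and 68.1% in the control library (64.9 to 71.1) also had Prlr, against 16.9% and 18.7% of Lhcgr-negative cells. Within cluster 5 the pair was found in 22.2% of PS-MP and 36.1% of control cells, at 1.21 and 1.13 times the product, nearer to 1 than over the whole class. Lhcgr and Ghr were together in 0.603% and 0.605% of granulosa-like cells, 0.877 and 0.498 times the product.

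Fshr and Ghr were found together less often than the product of their shares over all granulosa-like cells, and about as often as the product within cluster 6. The share with both was 2.69% of PS-MP cells (2.36 to 3.04) and 3.73% of control cells (3.37 to 4.12), which is 0.791 and 0.716 times the product. Ghr was found in 7.95% of PS-MP and 9.97% of control Fshr-positive cells, and in 11.1% and 16.3% of Fshr-negative cells. In cluster 6 the pair was in 5.68% and 6.99% of cells, 1.04 and 1.07 times the product, and in cluster 5 the values were 0.977 and 0.935 times. Fshr with Lhcgr came to 2.40% and 3.53% of granulosa-like cells, at 1.04 and 1.08 times the product, close to what independent detection of the gonadotropin receptors would give.

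Outside granulosa-like cells, Lhcgr and Prlr shared cells to different degrees. In theca-like cells both were found in 63.6% of PS-MP and 74.9% of control cells, 0.996 and 0.993 times the product, in a class where 89.4% and 91.7% of cells had Prlr. In stromal fibroblast-like cells the pair was in 5.84% and 5.56% of cells, 2.20 and 2.15 times the product, with Prlr in 53.9% and 53.1% of Lhcgr-positive cells and in 21.0% and 21.4% of Lhcgr-negative ones. In cluster 7, 79.2% of PS-MP cells had both, and 20.1% of its cells had 3 of the 4 receptors. Cells with none of the 4 made up 45.8% of PS-MP and 39.6% of control granulosa-like cells, and 2.56% and 0.579% of theca-like cells. Only 4 PS-MP and 4 control granulosa-like cells had all 4.

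**Figure D4:**
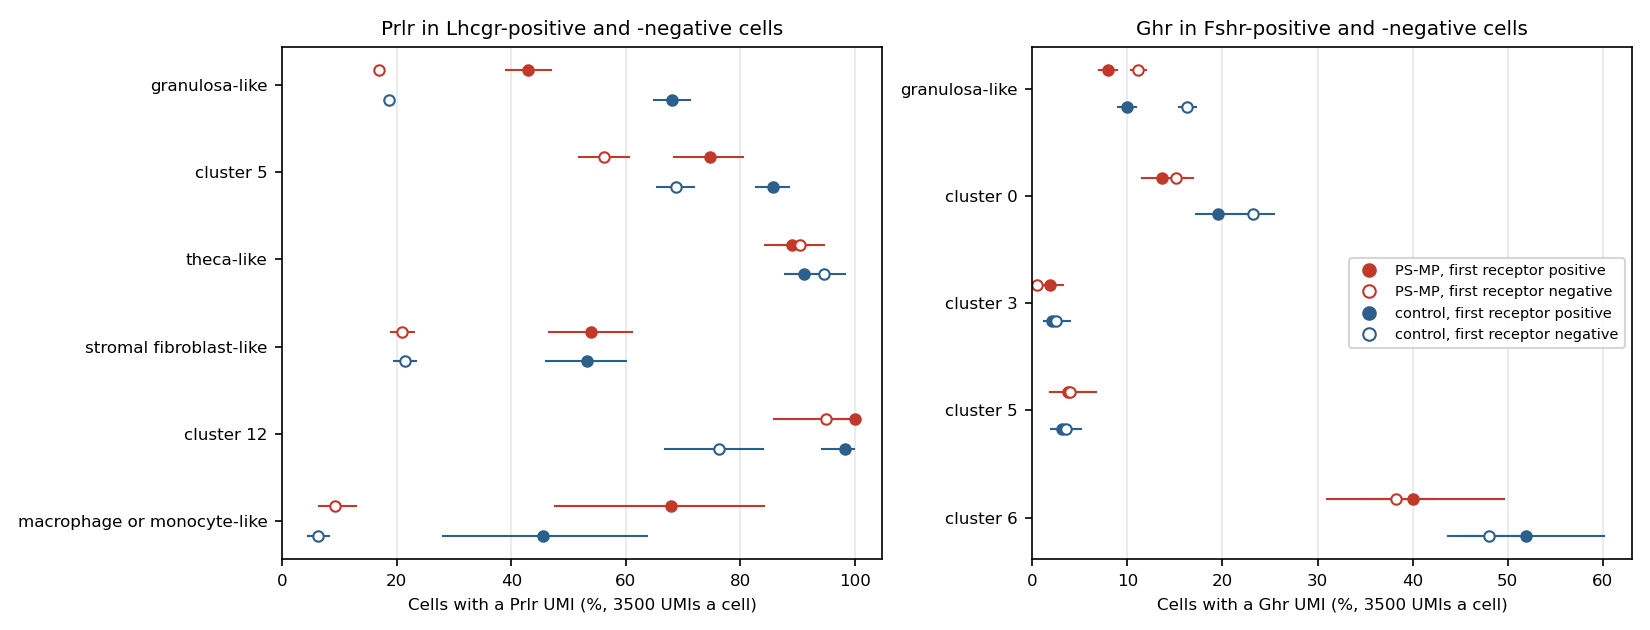
Left, share of cells with a Prlr UMI (%) among Lhcgr-positive (filled) and Lhcgr-negative (open) cells of 6 cell sets; right, the same for Ghr among Fshr-positive and Fshr-negative cells of 5 sets, PS-MP in red and control in blue, bars for exact 95% intervals. In granulosa-like cells Prlr is in 42.9% of PS-MP and 68.1% of control Lhcgr-positive cells, against 16.9% and 18.7% of Lhcgr-negative ones.

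Granulosa-like cells that carried a receptor differed in other genes from those that did not, and the pattern was alike in both libraries for most of these genes. Genes known to answer follicle-stimulating hormone were compared between thinned receptor-positive and receptor-negative cells. In Lhcgr-positive cells Cyp19a1 was at 258 CPM in the PS-MP library against 72.4 CPM in negative cells, a positive over negative ratio of 3.56, and at 970 against 115 CPM in the control library, a ratio of 8.40. The same ratio for Inhba was 2.97 and 4.46, and for Nppc, the natriuretic peptide that holds the oocyte in arrest, 2.48 and 4.37. Prlr-positive cells had Cyp19a1 ratios of 3.36 and 8.94. Fshr-positive cells differed less, with Inhba ratios of 1.49 and 1.64 and Cyp19a1 ratios of 1.43 and 1.28.

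Ghr-positive granulosa-like cells had the opposite profile. Cyp19a1 was at 24.3 CPM in Ghr-positive PS-MP cells against 91.9 CPM in negative ones, and at 50.1 against 213 CPM in control cells. The ratio was 0.262 and 0.224 for Inhba, 0.210 and 0.201 for Inhbb, and 0.616 and 0.523 for Fst, the activin-binding follistatin. These are descriptions of cells of 1 library each, and the contrast was smaller within 1 cluster: in cluster 5 the Lhcgr-positive over negative ratio was 1.30 and 1.77 for Cyp19a1 and 1.06 and 1.16 for Inhba.

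In stromal fibroblast-like cells, the Lhcgr-positive cells had higher levels of the steroid enzyme genes Cyp17a1 and Hsd3b1. They were 193 of 1782 PS-MP cells and 207 of 1977 control cells after thinning. Cyp17a1 was at 360 CPM in Lhcgr-positive and 12.8 CPM in Lhcgr-negative PS-MP cells, a ratio of 28.2 (21.5 to 37.2), and at 293 and 12.6 CPM in control cells, a ratio of 23.2 (17.8 to 30.5). Hsd3b1, which makes progesterone from pregnenolone, had ratios of 7.51 and 9.38, and Aldh1a1 of 4.21 and 3.81. Cyp17a1 and Aldh1a1 are on the theca marker list, and theca was the next class of this cluster. Its marker score was 0.517, beside 0.992 for stromal fibroblasts. Whether the Lhcgr-positive cells are theca cells, or hold theca RNA, was not tested. Col1a1, the main fibrillar collagen of stroma, had ratios of 0.440 and 0.449, and Tcf21, a stromal transcription factor, 0.372 and 0.304. Ghr ran the other way from Lhcgr here too, with ratios of 0.596 and 0.613. In theca-like cells Cyp17a1 was 2.53 and 2.76 times higher in Lhcgr-positive than in Lhcgr-negative cells, and Prlr was within its counting interval of equality at 1.09 and 0.970.

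Cluster 12, the luteal-like cluster with cells of both libraries, was split by Lhcgr. UMIs of Lhcgr per cell ran from 0 to 112 in PS-MP cells and from 0 to 229 in control cells, with quartiles of 0 and 18 and of 0 and 45, and 40.3% and 35.7% of cells had none. After thinning, 70 PS-MP and 122 control cells had an Lhcgr UMI, and 59 and 105 had none. Akr1c18, which inactivates progesterone and rises as the corpus luteum regresses, was at 298 CPM in Lhcgr-positive and 3966 CPM in Lhcgr-negative PS-MP cells, and at 365 and 6201 CPM in control cells. Ptgfr, the receptor for the prostaglandin that ends luteal life, was at 996 and 2169 CPM in PS-MP cells and at 600 and 1891 CPM in control cells. Both libraries thus showed the low-Lhcgr cells as the ones rich in Akr1c18 and Ptgfr. Prlr was higher in Lhcgr-positive cells, with ratios of 1.60 (1.40 to 1.82) and 1.86 (1.68 to 2.07).

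Other luteal markers of cluster 12 depended on the library. Hsd3b1 had a ratio of Lhcgr-positive over negative cells of 1.20 in PS-MP cells and 3.60 in control cells, and Mgarp, a mitochondrial protein of steroid-making cells, 1.54 and 5.02. Star, which moves cholesterol into mitochondria, had 0.120 and 0.525. Fdx1, which passes electrons to steroid enzymes, had 0.419 and 1.24, and Sfrp4 1.39 and 0.361, so these last pairs lay on opposite sides of 1. Median depths were 11607 UMIs in Lhcgr-positive and 14105 in Lhcgr-negative PS-MP cells, and 16161.5 and 15046 in control cells. In cluster 7 Akr1c18 was low throughout, at 50 CPM in 1543 Lhcgr-positive and 183 CPM in 365 Lhcgr-negative PS-MP cells.

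**Figure D5:**
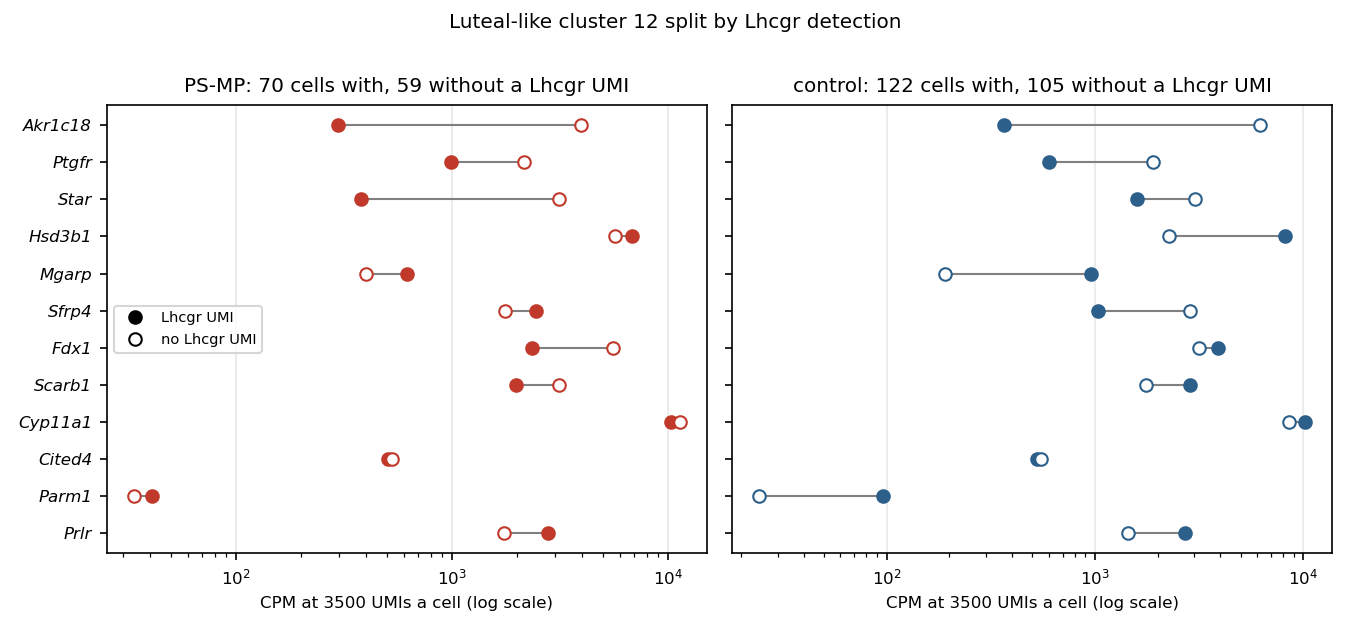
Level (CPM after thinning, log axis) of the luteal markers and of Prlr in cluster 12 cells with (filled) and without (open) an Lhcgr UMI, PS-MP left and control right. Akr1c18 and Ptgfr are lower and Prlr is higher in Lhcgr-positive cells in both libraries.

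The genes around the receptors were followed in lists of pathway members. Of the 21 genes of the cAMP relay behind the gonadotropin receptors, 16 were measured in granulosa-like cells, and 0 were higher and 0 lower. The list's median log2 ratio was -0.03 beside -0.02 for all genes. In theca-like cells 16 were measured and 0 passed. The lowest there were Pde8a, a cAMP-degrading enzyme, at 0.708, and Adcy9, which makes cAMP, at 0.724.

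Of 14 genes known to answer follicle-stimulating hormone in granulosa cells, 12 were measured in granulosa-like cells and 4 were lower, beside 0.476% of all genes measured there. The list's median log2 ratio was -0.30, beside -0.02 for all genes. They were Grem1, a BMP antagonist, at 63.1 CPM in PS-MP and 240 CPM in control cells (ratio 0.263), Cyp19a1 at 83.9 and 172 CPM (0.488), Inhba at 1959 and 3552 CPM (0.552), and Vcan, a matrix proteoglycan, at 166 and 257 CPM (0.646). Other members of the list had ratios above 1, such as Inha, the inhibin alpha subunit, at 1.09, and Hsd17b1, which makes estradiol from estrone, at 1.20. The list thus held ratios on both sides of 1, and 0 were higher by the rule. Cyp19a1 and Inhba ran both ways by cluster. Cyp19a1 was at 435 CPM in PS-MP and 927 CPM in control cells of cluster 5, and at 57.9 and 25.6 CPM in cluster 2. It was lower in PS-MP cells of clusters 3 and 5, higher in clusters 2 and 4, and under 20 CPM in clusters 0, 6 and 10. Inhba was lower in PS-MP cells of clusters 3, 4, 5, 6 and 10 and higher in clusters 0 and 2. The part of cluster 5 in these ratios was not tested. In theca-like cells 0 of 9 steroid genes measured passed the rule, with Cyp17a1 at 0.736 and Star at 1.01.

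Of 16 genes known to answer luteinising hormone at ovulation, 6 were measured in granulosa-like cells and 0 passed, with Cyp11a1 the highest at 1.44. In theca-like cells 9 were measured. Tnfaip6, a hyaluronan-binding protein, was higher at 32.0 CPM in PS-MP and 15.7 CPM in control cells (ratio 2.04), and 1.27% of all genes measured there were higher. Ereg, an EGF-like growth factor, was lower at 17.7 and 47.1 CPM (0.375), beside 1.54% of genes. Each of the pair reached 20 CPM in 1 library alone. Of 16 genes of the Jak and Stat relay, 13 were measured in granulosa-like cells and 0 passed, and 12 in theca-like cells and 0 passed. Socs2, a feedback inhibitor of growth hormone signalling, was at 687 and 745 CPM in granulosa-like cells (0.922) and at 135 and 164 CPM in theca-like cells (0.823).

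Of 13 genes known to answer prolactin or growth hormone, 8 were measured in granulosa-like and 8 in stromal fibroblast-like cells, and 0 passed in either. In theca-like cells 2 of 9 were lower, beside 1.54% of all genes measured there. They were Esr2, an oestrogen receptor, at 20.8 CPM in PS-MP and 31.7 CPM in control cells (0.658), and Akr1c18, which prolactin represses in the rodent corpus luteum. Akr1c18 was at 2.31 and 50.6 CPM, from 11 and 281 counts, and was measured through the control library alone. It is also the leading gene of luteal-like cluster 12. The 11 luteal markers summed to 20511 CPM in PS-MP and 20939 CPM in control theca-like cells, with 8 and 10 of the 11 at 20 CPM or more and 0 at 0. Akr1c18 itself is among the 10. The list shares genes with the theca steroid genes, such as Hsd3b1 at 8959 and 8502 CPM and Cyp11a1 at 5818 and 6540 CPM. The sum therefore cannot gauge luteal RNA in theca-like cells. The part of luteal RNA in the Akr1c18 values was not tested. Igf1 was at 399 and 413 CPM in granulosa-like cells (0.964).

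Across the 32 sums of cluster and library with at least 50 cells, the genes most like each receptor were found by Pearson correlation of log2(CPM + 1) over 12023 genes. These sums share libraries and depth, and the correlations are descriptions. The 5 most like Fshr were Fst (0.963), Tox2 (0.949), Mpped2 (0.929), Lrrc2 and Nap1l5 (0.911 each). Those of Lhcgr were Oxtr (0.944), Cyp11a1 (0.943), Prlr (0.939), Fdx1 (0.932) and Tmem86a (0.924), and those of Prlr were Fdx1 (0.957), Lhcgr (0.939), Me1 (0.937), Oxtr (0.933) and Tmem86a (0.911). Lhcgr and Prlr thus had each other and 3 further genes in common. Ghr had no such close partner: among its nearest genes were Asb4 (0.838), Pros1 (0.814), Galnt15 (0.805) and Nbl1 (0.801). Fshr and Lhcgr had a correlation of -0.22, Fshr and Ghr of -0.21, and Prlr and Ghr of -0.13.

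Of the other receptors for pituitary hormones, Oxtr, the oxytocin receptor, was at 25 CPM over all PS-MP cells and 10 CPM over all control cells. It was highest in luteal-like cells, at 122 CPM in PS-MP and 193 CPM in control cells, again from different clusters. Tshr, the thyrotropin receptor, was at 0.783 and 1.06 CPM over all cells, and Mc1r, Mc2r, Mc5r and Avpr1a were each under 1 CPM. Of the hormone genes, Prl had 1 and 0 counts, and Pomc was at 2.08 and 2.15 CPM. The symbols Fshb and Gh were in the gene list of neither library.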

How the data were processed

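The authors deposited raw UMI counts per gene and cell, whole numbers with no normalization. Cells were captured with BD Rhapsody beads, per the labels' protocols. The submitters' processing notes name GRCm39 and Seurat; the aligner and counting tool were not given in the sources used here. Cells with at least 500 genes and at most 25% mitochondrial counts were kept (286 PS-MP and 520 control cells exceeded that limit), and scrublet doublets were left out (358 and 315). With scanpy 1.11.5 and leidenalg 0.10.2, both libraries were clustered together from 2000 variable genes, 30 components and 15 neighbours at resolution 0.5, without batch correction. Clusters were named from 19 marker lists by relative level. Interval methods were exact conditional binomial for ratios, Clopper-Pearson for shares and Poisson for levels. Thinning to 3500 UMIs lost no cell. Named genes are the receptors, the 5 most correlated genes of each (1 is not reported here), up to 4 genes a pathway list, the markers and, chosen after their values were seen, further examples. Members and lists were chosen with earlier results of these data known. Ratio code was checked on simulated data.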

Additional observations from a re-analysis of the deposited data

Results flagged for a closer look

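Several receptors differed between the libraries in opposite ways in different cells, and in each case the difference between the cells was not tested. Among classes with at least 200 cells in both libraries, the Fshr ratio of PS-MP over control was lowest in blood endothelial-like cells, at 0.717 (0.476 to 1.07). That interval includes 1 and rests on 40 and 74 counts, while granulosa-like cells had 0.791 (0.773 to 0.809). The highest was 3.38 (2.72 to 4.25) in luteal-like cells, which were mostly cluster 7 in the PS-MP library and mostly cluster 12 in the control library. The Lhcgr ratio ran from 0.529 in granulosa-like cells to 3.45 in macrophage or monocyte-like cells, the Prlr ratio from 0.585 to 2.5 in the same classes, and the Ghr ratio from 0.623 to 1.52. Within granulosa-like cells, the Lhcgr ratio ran from 0.529 in cluster 5 to 2.46 in cluster 6, and the Prlr ratio from 0.565 in cluster 5 to 2.79 in cluster 10. Among these classes and clusters, the highest Lhcgr, Prlr and Ghr ratios were in the gauge cells or in clusters with positive shares at or below the gauge. Smaller classes differed: smooth muscle or pericyte-like cells had a Prlr ratio of 5.80. Their thinned PS-MP share of 15.6% lay above the gauge of 13.9%.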

How the results depend on the processing

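Of 67 values under alternative settings for the 6 ratios and the shares of co-detection, 40 moved by less than their counting interval, 23 moved further and 4 changed direction. Giving both libraries the cluster shares of the control library, and leaving out the cluster highest in Cyp19a1, were chosen after seeing the data; the other settings were planned. With a mitochondrial limit of 10%, granulosa-like ratios of PS-MP over control were 0.764 for Fshr, 0.505 for Prlr and 0.469 for Lhcgr, and the theca-like Lhcgr ratio was 0.799. With cells thinned they were 0.814, 0.564 and 0.480, and 0.751 for theca-like Lhcgr; with cells weighted alike they were 0.809, 0.561 and 0.477. Theca-like Lhcgr was 0.749 with the receptors allowed among variable genes and 0.747 at resolution 0.8. With granulosa-like clusters weighted alike, Prlr turned to 1.14 and Lhcgr to 1.37, and Ghr was 0.706. Given the control library's cluster shares in both libraries, Prlr was 0.709, Ghr 0.663 and Lhcgr 0.697. Without the cluster highest in Cyp19a1, Prlr was 0.920, Ghr 0.594, and Lhcgr turned to 1.28. With luteal-like cluster 7 counted as granulosa-like, Lhcgr turned to 4.93, by the construction of that setting. Co-detection of Fshr and Ghr was 2.28% of PS-MP and 3.36% of control granulosa-like cells at the 10% limit, and 8.58% and 13.0% without thinning. The stromal Ghr ratio stayed between 0.778 and 0.828. Where no construction shows it, the cause was not tested. No paired analysis was possible because each group has 1 library, and for the same reason no library could be left out. Depth limits low levels: at 3500 UMIs a cell, receptors of few UMIs are missed in many cells that carry them.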

Other observations

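Classes with fewer than 200 cells in a library are described here by their values. In the lymphoid-like cells of cluster 15, Ghr had 3 counts in 40 PS-MP cells and 48 counts in 98 control cells, or 9.47 and 55.1 CPM, a ratio of 0.172 (0.0343 to 0.534). Dendritic-like cells had 33 Prlr counts in 63 PS-MP cells and 14 in 132 control cells, or 89.3 and 16.9 CPM. Smooth muscle or pericyte-like cells had Prlr at 102 CPM in 90 PS-MP cells and 17.6 CPM in 145 control cells, a ratio of 5.80 (3.38 to 10.4). Oocyte-like cells had Prlr at 36.9 CPM in 92 PS-MP cells and 12 CPM in 76 control cells.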
